A study of Mus musculus with 18 samples.

Results

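The 10 genes described here make the MHC class I pathway: B2m, H2-K1, H2-D1, Tap1, Tap2, Tapbp, Psmb8, Psmb9, Psmb10 and Nlrc5. They were found by symbol among the 50600 gene IDs of the deposited count table, and all 10 were matched and passed the filter on low counts. The RNA came from bone marrow-derived macrophages (BMDMs) of WT and IRF5 KO mice, grown with GM-CSF for 8 days. Each genotype had 9 libraries, 3 left unstimulated, 3 given LPS (100 ng/ml, 2 h) after DMSO and 3 given the same LPS after defactinib. Defactinib inhibits the kinases PYK2 and FAK and was used at 3.5 μM from 1 h before LPS. The labels give DMSO for the unstimulated libraries where the column names mark them untreated. Male C57BL/6J mice aged 8 to 11 weeks were bought for the work as a whole, and the labels give neither age nor sex for the marrow donors of either genotype. Nothing in the labels says whether libraries of a group came from separate mice, so p-values measure the spread between these libraries.

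MHC class I molecules carry peptides from inside the cell to its surface, where CD8 T cells read them. Proteins are cut by the proteasome, the peptides cross into the endoplasmic reticulum through the TAP transporter, and tapasin helps to load them onto a heavy chain paired with beta-2 microglobulin. The pathway is a textbook target of interferons, of NF-kB and of the transactivator NLRC5, and macrophages raise it when they meet microbes. IRF5 is a transcription factor that acts downstream of Toll-like receptors.

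By the annotation of mm10, 7 of the 10 genes lie on chromosome 17: H2-K1 (ENSMUSG00000061232, 33996017 to 34000333), H2-D1 (ENSMUSG00000073411, 35262730 to 35267499), Tap1 (ENSMUSG00000037321, 34187553 to 34197225), Tap2 (ENSMUSG00000024339, 34203527 to 34216321), Tapbp (ENSMUSG00000024308, 33915899 to 33929288), Psmb8 (ENSMUSG00000024338, 34197721 to 34201454) and Psmb9 (ENSMUSG00000096727, 34181988 to 34187764). B2m (ENSMUSG00000060802) is on chromosome 2 from 122147686 to 122153083. Psmb10 (ENSMUSG00000031897, 105935735 to 105938444) and Nlrc5 (ENSMUSG00000074151, 94434356 to 94527272) are on chromosome 8. Tap1 and Psmb9 are read in opposite directions and overlap at their 5′ ends, and counting used strand. H2-K1 and H2-D1 are near-identical in parts of their sequence, so that reads which fit both may have been dropped, and their separate values are uncertain. Tapbp overlaps Zbtb22 on the same strand.

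Transcript starts of RefSeq (GRCm38.p6) can lie inside the gene spans above, as for H2-D1 and Tapbp. Promoter windows from 250 bases before to 50 after such starts were held for 8 of the 10 genes (2 for H2-K1, 1 printed). Those of B2m (chr2:122147437-122147736, plus strand), H2-K1 (chr17:34000298-34000597, minus), H2-D1 (chr17:35262844-35263143, plus) and Tap1 (chr17:34187306-34187605, plus) are printed because they hold most of the matches to known elements and because the Tap1 window shares 275 bases with that of Psmb9. Capitals mark a match, on either strand, to GAAA, any 2 bases and GAAA (an interferon-stimulated response element, ISRE), to TTC, any 3 bases and GAA (a gamma-activated site), to GGG, any 5 bases and CC (a kappa B site), to TGACG (the X2 box of the class I enhanceosome) or to CCAAT (its Y box). Where kappa B matches overlap each other the capitals run on.

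B2m: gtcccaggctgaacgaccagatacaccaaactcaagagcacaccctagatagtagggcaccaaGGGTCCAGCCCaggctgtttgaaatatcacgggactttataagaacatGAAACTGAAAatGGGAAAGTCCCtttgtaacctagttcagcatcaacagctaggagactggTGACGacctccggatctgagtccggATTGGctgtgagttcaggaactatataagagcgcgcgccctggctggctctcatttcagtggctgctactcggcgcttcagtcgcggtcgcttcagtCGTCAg
H2-K1: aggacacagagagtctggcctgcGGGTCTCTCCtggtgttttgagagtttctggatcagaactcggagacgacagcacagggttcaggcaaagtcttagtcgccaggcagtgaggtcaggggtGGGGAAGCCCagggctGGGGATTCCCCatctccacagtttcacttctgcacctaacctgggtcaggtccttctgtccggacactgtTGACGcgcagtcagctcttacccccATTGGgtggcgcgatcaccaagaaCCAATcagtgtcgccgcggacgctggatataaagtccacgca
H2-D1: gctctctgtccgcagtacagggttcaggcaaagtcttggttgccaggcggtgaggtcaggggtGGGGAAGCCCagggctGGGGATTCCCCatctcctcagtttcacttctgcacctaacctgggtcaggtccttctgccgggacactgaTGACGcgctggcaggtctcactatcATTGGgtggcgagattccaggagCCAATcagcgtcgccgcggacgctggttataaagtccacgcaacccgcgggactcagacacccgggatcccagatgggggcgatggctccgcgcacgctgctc
Tap1: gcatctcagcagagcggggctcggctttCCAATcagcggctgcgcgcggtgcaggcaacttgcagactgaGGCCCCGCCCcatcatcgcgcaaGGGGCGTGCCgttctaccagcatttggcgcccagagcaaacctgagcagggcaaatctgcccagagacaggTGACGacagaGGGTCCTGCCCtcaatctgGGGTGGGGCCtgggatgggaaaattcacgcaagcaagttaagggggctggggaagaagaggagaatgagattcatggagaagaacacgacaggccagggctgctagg

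The B2m window held the only ISRE match among the 8 genes, at 139 to 130 bases before the start, just upstream of a kappa B match. This element was in 3.44% of all 32851 windows. H2-K1 and H2-D1 held the same 3 kappa B letter strings, GGGGAAGCCC, GGGGATTCCC and GGGATTCCCC, followed by TGACG and a reversed CCAAT at equal distances. The windows of Tap1 and Psmb9 share bases, so their matches are partly the same. Kappa B matches were found in 5 of the 8 genes (B2m, H2-K1, H2-D1, Tap1 and Psmb9), against 50.8% of all windows. TGACG was in the same 5 genes, against 20.8%, and CCAAT in 6, Tapbp being the sixth, against 37.4%. The Psmb8 window held 1 gamma-activated match, TTCCCAGAA, against 8.3% of windows, and the Psmb10 window held none of the 5. These matches are letters in a window and were not tested as sites.

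The libraries held 39282181 to 61949143 counted read pairs. Values below are CPM, counts relative to the library total after TMM scaling, or RPKM, which is CPM per kilobase of exon, where genes are compared with each other. Irf5 was at 587 to 650 CPM in WT and 335 to 397 CPM in IRF5 KO libraries at rest, but at 434 to 475 and 345 to 435 CPM after LPS with DMSO. With defactinib it was at 213, 234 and 379 CPM in WT and 364, 392 and 353 CPM in IRF5 KO (log2 fold change, WT over IRF5 KO, -0.42, adjusted p = 0.054). Its count pools all exons and so does not check the genotype labels, which are used here as given. Among 8 macrophage markers Lyz2 was at 7705 CPM or more in every library and Itgax was the highest of the dendritic cell markers. All 13 markers of T, B and NK cells together came to 3.49 CPM at most, with Gzma at 0 in every library. Summed neutrophil markers were at 58.0 to 82.3 CPM in unstimulated and 117 to 237 CPM in LPS libraries of both genotypes, and their part in the LPS results was not tested. Bulk RNA cannot tell fewer cells of a type from less RNA per cell. In WT LPS defactinib, replicate 3 was higher than both others for all 10 genes, by 1.36 (Tap2) to 2.72 (Tap1) times their mean, and had Irf7, an interferon-induced regulator, at 885 CPM against 16.7 and 10.7. In IRF5 KO LPS DMSO, replicates 1 and 2 were nearly alike (chi-square per gene 2.33) and far from replicate 3 (441 and 425). Gm26917, a lincRNA, was at 26817 and 26679 CPM in these 2 libraries and at 113 in replicate 3, where all 6 defactinib libraries were at 11392 to 41939 and the other libraries at 143 or less. In the same 3 libraries Malat1, a nuclear RNA, was at 505, 525 and 118 CPM (317 to 985 with defactinib and 107 to 292 elsewhere) and Ifnar1, an interferon receptor, at 36.0, 41.8 and 141 CPM (52.9 to 79.6 with defactinib and 140 to 200.5 elsewhere), so that replicates 1 and 2 were nearer to the defactinib libraries in Malat1, Ifnar1 and Gm26917. Both RNAs, Gm26917 and Malat1, belong to a list of 8 signs of RNA quality, of which 5 rose with LPS in WT, where 20.6% of all genes did, and 7 in IRF5 KO, where 18.5% did (none without replicates 1 and 2, where 4% of all genes did). The 5 mitochondrial genes of the list together were at 2875 to 4878 CPM at rest, 5895 to 7915 CPM after LPS with DMSO in WT, 5960, 6014 and 3331 CPM in IRF5 KO, and 6443 to 9559 CPM with defactinib. The part of these signs in the results was not tested. Where results changed without the libraries that stand apart, values with some of them left out follow, with the share of all genes in that fit as the background.

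At rest in WT the surface molecules stood above the genes that make and move the peptide, per length. B2m led with 2091 ± 32 RPKM (SD, n = 3), followed by H2-D1 with 607 ± 27 and H2-K1 with 338 ± 9.1. Tapbp stood at 142 ± 6.5 RPKM and Psmb8 at 84.9 ± 3.7. Psmb10 (37.7 ± 2.7) and Tap2 (35.2 ± 1.8) were neighbours that did not differ beyond their spread. Tap1 was lower at 24.6 ± 1.9 RPKM, Psmb9 at 14.3 ± 0.48 and Nlrc5, the regulator, lowest at 6.83 ± 0.41. After LPS with DMSO in WT, Tap1 reached 83.2 ± 8.9 RPKM and passed Tap2 (59.8 ± 7.5) and Psmb10 (51.7 ± 2.7). Psmb9 stayed below Tap1, at 32.3 ± 2.5 RPKM.

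**Figure D1:**
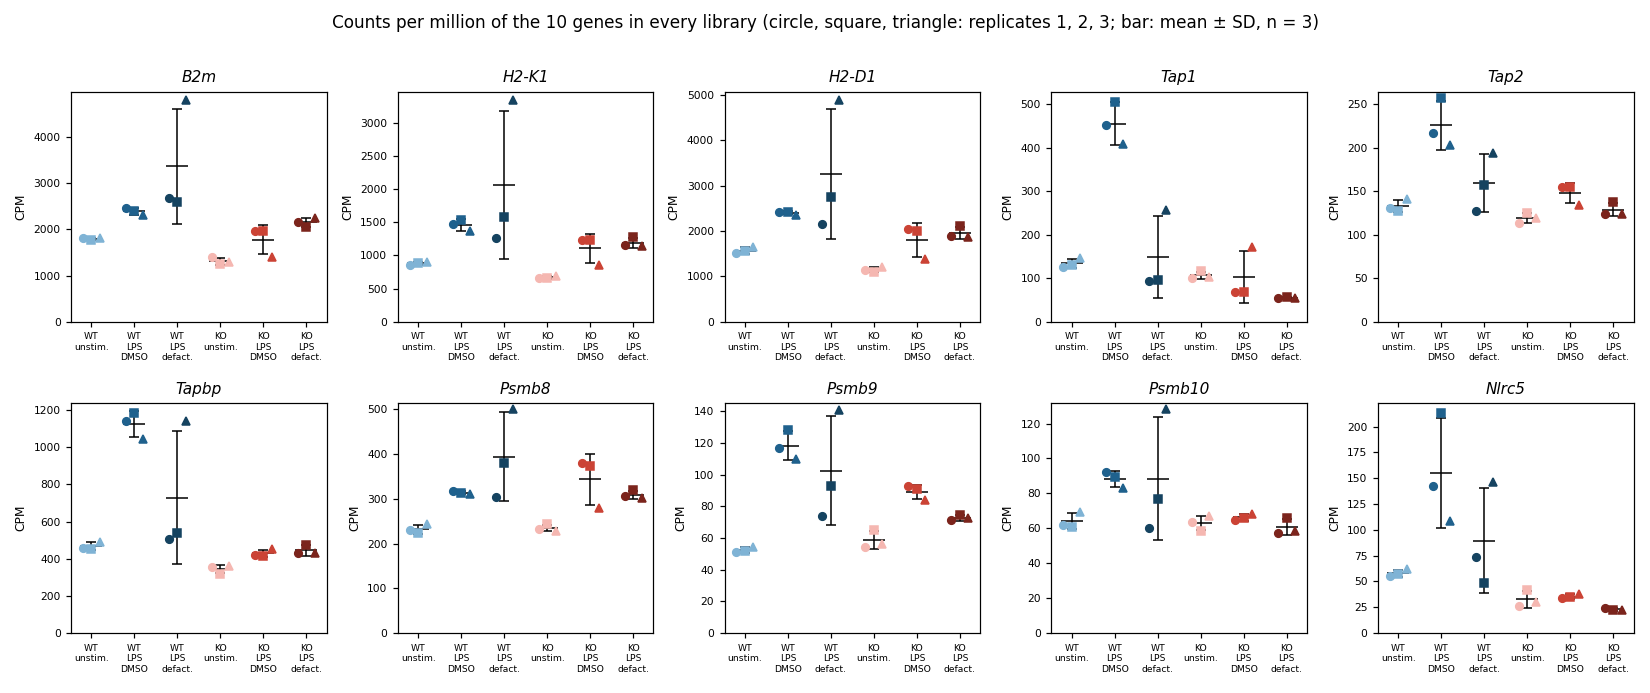
Each panel plots 1 gene, with CPM on a linear axis from 0 and the 6 groups along the horizontal axis. Circles, squares and triangles are replicates 1, 2 and 3, and bars give mean ± SD (n = 3). Tap1, Tapbp and Nlrc5 rose with LPS in WT and did not pass in IRF5 KO (the difference passed for Tap1 and Tapbp and not for Nlrc5), H2-K1 and H2-D1 rose in both, and the triangle of WT LPS defactinib stands above its group in every panel.

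LPS in WT raised 8 of the 10 genes, and Tap1, Tapbp, Psmb9 and Nlrc5 by more than 2-fold. In edgeR's quasi-likelihood test, adjusted by Benjamini-Hochberg across 15663 genes, 8 of the 10 genes rose at an adjusted p below 0.05, where 20.6% of all tested genes did. At 2-fold or more, 4 of 10 rose (Tap1, Tapbp, Psmb9 and Nlrc5), against 11.6% of all genes. The median log2 fold change of the 10 was 0.75, and that of all tested genes -0.0045. B2m and Psmb10 were the ones that did not pass. With WT LPS defactinib replicate 3 left out of the shared fit 10 of 10 rose, against 21.4% of all genes, and without IRF5 KO LPS DMSO replicate 3 also 10, against 25.5%. At 2-fold, scaling by library size alone kept Tap1 and Nlrc5, and none of the 10 was called with the threshold inside the test (glmTreat).

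Tap1, which with Tap2 forms the peptide transporter, had the largest change of the 10. It was at 126, 131 and 146 CPM at rest and at 451, 506 and 409 CPM after LPS, with no overlap. This was a log2 fold change of 1.76 (95% interval 0.96 to 2.56, adjusted p = 0.0014). Tap2 was at 131, 128 and 141 CPM at rest and 218, 258 and 203 CPM after LPS, also apart, and rose by 0.76 on the log2 scale (SE 0.13, adjusted p = 0.00019).

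Tapbp encodes tapasin, which bridges the transporter and the heavy chain. Its libraries were at 457, 454 and 492 CPM at rest and 1144, 1182 and 1045 CPM after LPS, and every LPS library was above every resting one. The log2 fold change was 1.26 (SE 0.22, adjusted p = 0.00021).

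Nlrc5, the transactivator that drives class I genes, was at 55.3, 56.9 and 61.9 CPM at rest and 143, 213 and 109 CPM after LPS. The groups did not overlap, although the LPS libraries were spread widely. Its log2 fold change was 1.42 (SE 0.32, adjusted p = 0.0019).

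H2-K1 and H2-D1, heavy chains that present the peptide, rose by less than 2-fold. H2-K1 was at 857, 882 and 904 CPM at rest and 1469, 1542 and 1365 CPM after LPS (log2 fold change 0.73, SE 0.25, adjusted p = 0.028). H2-D1 was at 1507, 1550 and 1642 CPM and then at 2420, 2409 and 2359 CPM (0.61, SE 0.21, adjusted p = 0.031). Neither gene had overlapping groups. Over 26 alternatives H2-K1 passed in 19 and H2-D1 in 18, with adjusted p of up to 0.22 and 0.32, and library size alone was among those that ended both calls. B2m, the invariant light chain, had 1820, 1768 and 1808 CPM at rest and 2476, 2396 and 2317 CPM after LPS. These groups did not overlap either, but the log2 fold change of 0.41 did not pass (SE 0.18, adjusted p = 0.083). It passed under 4 of 26 alternatives, among them without WT LPS defactinib replicate 3 (0.41, adjusted p = 0.0054). That library is in neither group and enters through the shared fit, that is its filter, scaling, spread and adjustment.

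Psmb8, Psmb9 and Psmb10 are the catalytic subunits that turn the proteasome into the immunoproteasome. Psmb9 was at 51.2, 51.5 and 54.4 CPM at rest and 117, 128 and 110 CPM after LPS, a log2 fold change of 1.18 (SE 0.16, adjusted p = 3.2e-05), the smallest p of the 10. Psmb8 was at 229, 224 and 243 CPM and then 317, 313 and 312 CPM (0.44, SE 0.14, adjusted p = 0.022). Psmb10 had 62.1, 60.9 and 69.6 CPM at rest and 92.0, 89.5 and 83.0 CPM after LPS. All 3 had groups that did not overlap, but Psmb10 did not pass (0.46, SE 0.18, adjusted p = 0.057).

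In IRF5 KO 4 of the 10 genes rose with LPS (H2-K1, H2-D1, Psmb8 and Psmb9), each by less than 2-fold. None of the 10 passed 2-fold in edgeR's test, where 13.3% of all genes did in either direction. At an unadjusted p below 0.05 there were 6, and DESeq2 called 0 at 2-fold and 4 by adjusted p. Here and below, counts at an unadjusted p or by DESeq2 are given without the share of all genes and so have no background. The 4 that rose by adjusted p alone stand against 18.5% of all genes, and the median log2 fold change was 0.38, beside 0.01 for all genes. Without replicate 3 of the LPS DMSO group 6 rose, against 28.0% of all genes, and without WT LPS defactinib replicate 3 in the shared fit 7 rose, against 21.1%. Without both libraries that stand apart (replicate 3 of each group) 7 rose, against 30.8%, and Tap1 fell, 1 of 10 against 32.5%. Without replicates 1 and 2, which leaves 1 library assumed to vary like the other groups, none of the 10 passed and 4% of all genes rose. Over 26 alternatives H2-K1 and H2-D1 passed in 17 each, Psmb8 in 22 and Psmb9 in 23.

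H2-K1 was at 656, 660 and 689 CPM at rest in IRF5 KO and 1238, 1234 and 855 CPM after LPS. All LPS libraries were above rest, the third least so, and the log2 fold change of 0.73 (SE 0.25, adjusted p = 0.033) was the same size as in WT. H2-D1 was at 1139, 1099 and 1199 CPM and then at 2046, 1992 and 1378 CPM (0.66, SE 0.21, adjusted p = 0.027). B2m was at 1395, 1247 and 1288 CPM at rest and 1964, 1969 and 1409 CPM after LPS (0.44, SE 0.18, adjusted p = 0.067).

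For Psmb8 the IRF5 KO libraries were at 233, 243 and 229 CPM at rest and 381, 373 and 279 CPM after LPS (log2 fold change 0.55, SE 0.14, adjusted p = 0.010). Psmb9 was at 54.5, 64.9 and 56.4 CPM and then 92.5, 91.0 and 84.1 CPM (0.61, SE 0.16, adjusted p = 0.012). Psmb10 stayed between 58.5 and 68.4 CPM, and its groups overlapped.

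Tap1 was at 99.9, 116 and 104 CPM at rest in IRF5 KO and 67.2, 68.9 and 173 CPM after LPS. Replicates 1 and 2 were below every resting library and replicate 3 above, so the log2 fold change of -0.05 (95% interval -0.82 to 0.73, adjusted p = 0.93) averages libraries that went opposite ways. It was -0.65 (adjusted p = 0.11) without replicate 3, with an adjusted p of 5.4e-06 once WT LPS defactinib replicate 3 was left out as well, and 0.71 (adjusted p = 0.44) without replicates 1 and 2. Tapbp was at 357, 317 and 360 CPM at rest and 418, 417 and 450 CPM after LPS, apart but not past the threshold (adjusted p = 0.25). Nlrc5 was at 26.1, 42.1 and 29.9 CPM and then 33.5, 34.7 and 37.7 CPM, with overlap.

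**Figure D2:**
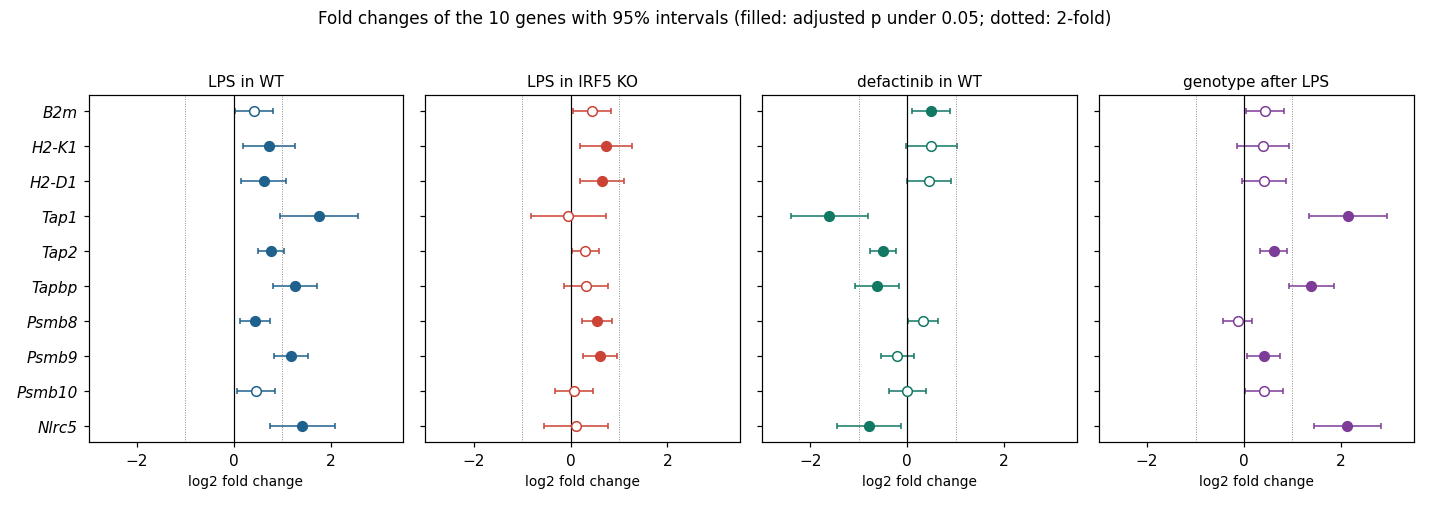
Points are log2 fold changes of the 10 genes in 4 comparisons, with 95% intervals; filled points have an adjusted p below 0.05 and dotted lines mark 2-fold. For LPS in WT 4 genes lie beyond 2-fold, in the panel of LPS in IRF5 KO none does, defactinib lowered Tap1 beyond it, and after LPS Tap1, Tapbp and Nlrc5 were higher in WT by more than 2-fold.

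The difference between the genotypes' LPS responses was tested as an interaction. Tap1 rose more in WT, by 1.81 on the log2 scale (SE 0.52, adjusted p = 0.027), and so did Tapbp, by 0.95 (SE 0.30, adjusted p = 0.041). These were 2 of 10 genes by adjusted p, against 9.77% of all genes, and 1 of 10 at 2-fold, against 6.33%. By adjusted p there were 4 without WT LPS defactinib replicate 3 (Tap1, Tapbp, Psmb9 and Nlrc5, against 11.2%), 3 without IRF5 KO LPS DMSO replicate 3 (Tap1, Tapbp and Nlrc5, against 25.3%), 6 without both (Tap2 and Psmb10 as well, against 27.9%) and none without replicates 1 and 2 of IRF5 KO LPS DMSO (5.15%). Nlrc5 missed the threshold with a difference of 1.30 (SE 0.44, adjusted p = 0.054). For H2-K1 the 95% interval of the difference ran from -0.75 to 0.75, for H2-D1 from -0.69 to 0.60 and for B2m from -0.58 to 0.52. The Tap1 call rests on the IRF5 KO LPS DMSO libraries: without replicate 3 its difference was 2.40 (adjusted p = 0.00074), and without replicates 1 and 2 it was 1.04 (adjusted p = 0.27). Over 26 alternatives its adjusted p ran from 9.3e-12 to 0.27, and 15 kept the call. It was lost on leaving out any 1 WT unstimulated library, replicate 1 or 2 of LPS DMSO in either genotype, or replicate 2 or 3 of unstimulated IRF5 KO. The Tapbp call was kept under 9 of 26 alternatives, with an adjusted p of up to 0.21.

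At rest the genotypes were not told apart at 2-fold for any of the 10 genes in edgeR's test (7.31% of all genes in either direction). At an unadjusted p below 0.05 there were 2, Nlrc5 and B2m, and DESeq2 called 0 at 2-fold and 1 by adjusted p, Nlrc5. Nlrc5 was at 55.3 to 61.9 CPM in WT and 26.1 to 42.1 CPM in IRF5 KO, apart, with a log2 fold change (WT over IRF5 KO) of 0.83 (SE 0.31, adjusted p = 0.093). B2m was at 1768 to 1820 CPM in WT and 1247 to 1395 CPM in IRF5 KO (0.46, SE 0.18, adjusted p = 0.115). Libraries of the genotypes did not overlap for 8 of the 10 genes, and in 7 of them (all but Psmb9) WT was the higher. The share of all genes without overlap was not counted, so this count has no background. With WT LPS defactinib replicate 3 left out of the shared fit, 5 genes passed by adjusted p, all higher in WT, against 9.11% of all genes: B2m, H2-K1, H2-D1, Tapbp and Nlrc5. Tap1 joined them when IRF5 KO LPS DMSO replicate 3 was left out too (6 genes, against 16.4%), and with that library alone left out B2m was the 1 gene that passed, against 13.1%. The summed markers of mast cells and basophils differed by genotype in every condition, at 7.89 to 15.5 CPM in WT and 42.7 to 72.4 CPM in IRF5 KO. Of these, Gata2 and Kit were the highest, and Fcer1a, Tpsb2 and Cma1 were at 0.053 CPM or less in every library.

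After LPS with DMSO, 5 of the 10 genes were higher in WT than in IRF5 KO by adjusted p (Tap1, Tap2, Tapbp, Psmb9 and Nlrc5), against 25.3% of all genes, and 3 of 10 by 2-fold (Tap1, Tapbp and Nlrc5), against 14% of all genes. Tap1 had 409 to 506 CPM in WT and 67.2 to 173 CPM with the knockout (log2 fold change 2.14, SE 0.38, adjusted p = 0.000315). Nlrc5 had 109 to 213 CPM in WT and 33.5 to 37.7 CPM in IRF5 KO (2.13, SE 0.32, adjusted p = 8.4e-05). Tapbp had 1045 to 1182 CPM in WT and 417 to 450 CPM in IRF5 KO (1.39, SE 0.22, adjusted p = 9.7e-05). No libraries overlapped, and these 3 genes were called under all 26 alternatives at this threshold, Tap1 at 1.38 (adjusted p = 0.041) against IRF5 KO replicate 3 alone.

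Tap2 differed less, at 203 to 258 CPM in WT against 134 to 155 CPM (0.61, SE 0.13, adjusted p = 0.0011). Psmb9 differed by 0.41 (SE 0.16, adjusted p = 0.046) and passed under 7 of 26 alternatives. Without WT LPS defactinib replicate 3 in the shared fit 9 of the 10 genes were higher in WT by adjusted p, against 25.6% of all genes, without IRF5 KO LPS DMSO replicate 3 there were 4, against 33.0%, and without replicates 1 and 2 there were 5, against 15.7%. Without both libraries that stand apart 9 were higher in WT, against 34.9%, and Psmb8 was lower, 1 of 10 against 34.3%. Psmb8 had 312 to 317 CPM in WT and 279 to 381 CPM in IRF5 KO, so WT lay within the range of IRF5 KO. The median of the 10 genes was 0.42, and that of all tested genes -0.05.

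With defactinib in WT, compared with DMSO after the same LPS, Tap1, Tap2, Tapbp and Nlrc5 fell. These were 4 of the 10 genes by adjusted p, against 28.6% of all genes. B2m rose, 1 of 10 against 28.4%, but not without replicate 3 of the defactinib group. With either replicate 3 or replicates 1 and 2 of IRF5 KO LPS DMSO left out of the shared fit, 3 fell (all but Nlrc5), against 31.7% and 30.0%, and 2 rose (B2m and Psmb8), against 32.9% and 32.1%. At 2-fold 1 of 10 fell, Tap1, against 18.6%. These shares are near those of all genes, and the median of the 10 was -0.10, beside 0.09 for all.

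Tap1 was at 451, 506 and 409 CPM with DMSO and 92.5, 96.7 and 257 CPM with defactinib. Replicate 3 lay between the other defactinib libraries and DMSO, the groups did not overlap, and Tap1 fell by 1.61 on the log2 scale (SE 0.37, adjusted p = 0.0019). Tap2 had 127, 157 and 194 CPM with defactinib, all below the DMSO libraries, and fell by 0.51 (SE 0.13, adjusted p = 0.0036).

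Tapbp was at 507, 537 and 1142 CPM with defactinib, where replicate 3 lay within the DMSO range, and its log2 fold change was -0.62 (SE 0.21, adjusted p = 0.021). Nlrc5 was at 73.6, 48.7 and 146 CPM with defactinib, again with replicate 3 inside the DMSO range (-0.79, SE 0.31, adjusted p = 0.041). The call for Nlrc5 was kept under 8 of 26 alternatives, with an adjusted p of up to 0.23, and that for Tapbp under 20. B2m was at 2691, 2606 and 4814 CPM, all above DMSO, and rose by 0.49 (SE 0.18, adjusted p = 0.032).

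For H2-K1 defactinib gave 1268, 1576 and 3343 CPM around the DMSO range of 1365 to 1542, a log2 fold change of 0.50 that did not pass (adjusted p = 0.099). H2-D1 behaved alike, at 2153, 2755 and 4882 CPM (0.45, adjusted p = 0.087). Psmb8 had 304, 379 and 501 CPM, Psmb9 73.7, 92.9 and 141 CPM and Psmb10 60.4, 76.8 and 128 CPM. In these 5 genes the defactinib libraries spread to both sides of the DMSO libraries, with replicate 3 the highest each time.

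Without replicate 3 of WT LPS defactinib 6 of the 10 genes fell by adjusted p, against 28.6% of all genes in that fit, and 3 of them by 2-fold, against 19.4%. None of the 10 passed as higher, against 29.8%. Tap1 was at -2.25 (adjusted p = 6.2e-05), Nlrc5 at -1.33 (adjusted p = 0.00056) and Tapbp at -1.09 (adjusted p = 4.8e-07). Tap2, Psmb9 (-0.48) and Psmb10 (-0.34) fell by less. The rise of B2m was no longer called (0.16, adjusted p = 0.24), and H2-K1 was at -0.014.

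**Figure D3:**
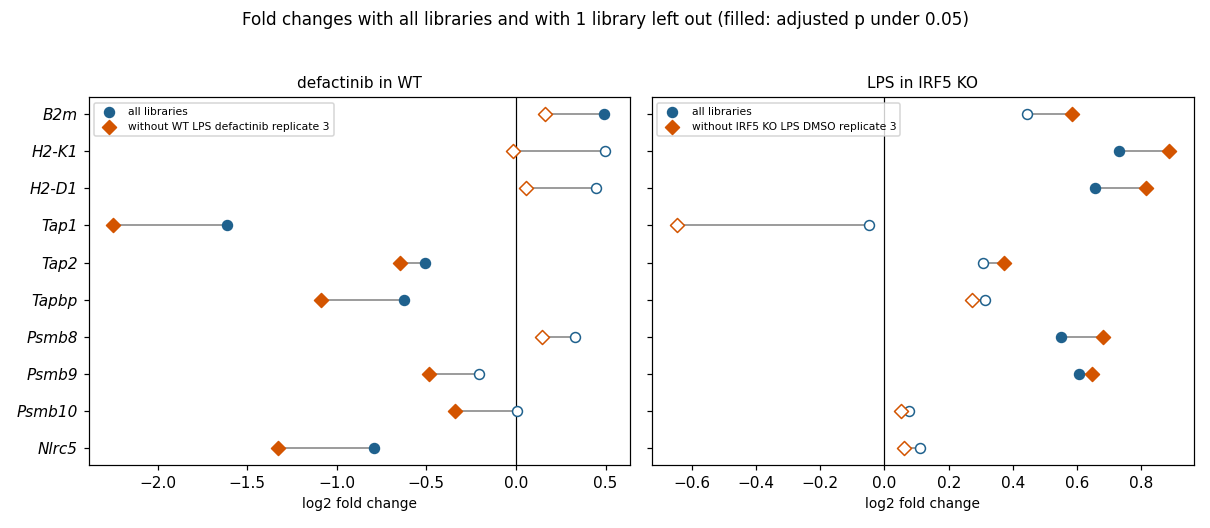
Log2 fold changes of the 10 genes with all libraries (blue circles) and with 1 library left out (orange diamonds), filled where the adjusted p is below 0.05. On the left, leaving out WT LPS defactinib replicate 3 moves every gene down, Tap1 from -1.61 to -2.25 and H2-K1 from 0.50 to -0.014; on the right, leaving out IRF5 KO LPS DMSO replicate 3 moves Tap1 from -0.05 to -0.65 and the heavy chains up.

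In IRF5 KO defactinib changed none of the 10 genes in edgeR's test, by adjusted p or at 2-fold, where 0.919% of all genes passed 2-fold. At an unadjusted p below 0.05 there was 1, Tap1, and DESeq2 called 0 by adjusted p or at 2-fold. Tap1 was at 55.0, 57.5 and 53.4 CPM with defactinib, below all DMSO libraries (67.2, 68.9 and 173 CPM), with a log2 fold change of -0.90 (SE 0.37, adjusted p = 0.16). Against DMSO replicate 3 alone it was -1.66 (adjusted p = 0.0057), and against replicates 1 and 2 it was -0.30 (adjusted p = 0.63, or 0.031 with WT LPS defactinib replicate 3 left out too). In that last fit 3 of the 10 genes fell by adjusted p, against 5.54% of all genes: Tap1, Psmb8 (-0.29, adjusted p = 0.018) and Psmb9 (-0.34, adjusted p = 0.022). Summed macrophage markers were at 9897 to 12387 CPM with DMSO and 18205 to 19152 CPM with defactinib in IRF5 KO. Most of each sum was Lyz2, at 7705 to 15899 CPM over all libraries, where the next highest marker, Csf1r, reached 1212 CPM. Of the 8 markers none passed 2-fold, where 0.919% of all genes did. Nlrc5 was at 24.6, 21.9 and 22.6 CPM with defactinib and 33.5 to 37.7 CPM with DMSO, apart, at -0.62 (SE 0.31, adjusted p = 0.25).

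The contrast of the defactinib effects in WT and IRF5 KO passed at 2-fold for none of the 10 genes in edgeR's test, where 22.8% of all genes did in either direction. There were 2 at an unadjusted p below 0.05, Tapbp and Psmb8, and DESeq2 called 0 by adjusted p or at 2-fold. Tap1 differed by -0.72 (95% interval -1.81 to 0.38, adjusted p = 0.29) and Tapbp by -0.68 (SE 0.30, adjusted p = 0.090). Without WT LPS defactinib replicate 3 both were called, Tap1 at -1.33 (adjusted p = 0.017) and Tapbp at -1.12 (adjusted p = 7.5e-06), a larger fall in WT, where 13.3% of all genes were called lower at 2-fold. By adjusted p Tap2 passed there as well, 3 of 10 against 19.3% of all genes. With IRF5 KO LPS DMSO replicate 3 left out Tap1 was the 1 gene called at 2-fold, at -1.32 (adjusted p = 0.023, against 18.8% of all genes called lower at 2-fold), and Psmb8 passed by adjusted p as higher (0.62, adjusted p = 0.0072, against 26.9%). Without both, Tap1, Tap2 and Tapbp passed as lower, against 29.9%, and Psmb8 as higher, against 29.7%.

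Under LPS with defactinib, 8 of the 10 genes were higher in WT than in IRF5 KO by adjusted p (all but Tap2 and Psmb8), against 18.3% of all genes, and Tap1 and Nlrc5 by 2-fold, against 8.45%. Nlrc5 was at 48.7 to 146 CPM in WT and 21.9 to 24.6 CPM with the knockout (log2 fold change 1.96, SE 0.32, adjusted p = 0.00022). Tap1 was at 92.5 to 257 CPM in WT and 53.4 to 57.5 CPM in IRF5 KO (1.43, SE 0.37, adjusted p = 0.0074). Without WT replicate 3, 3 genes passed by adjusted p (B2m, Tapbp and Nlrc5), against 16.2% of all genes, Nlrc5 remained called at 1.42 (adjusted p = 0.00037) and Tap1 was at 0.80 (adjusted p = 0.051). All 10 genes passed without IRF5 KO LPS DMSO replicate 3 in the shared fit, against 25.2%, and without its replicates 1 and 2, against 24.7%. Without both libraries that stand apart 6 passed, against 24.1%.

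Set against unstimulated cells, LPS with defactinib left the heavy chains raised in WT. H2-K1 (1.23, SE 0.25, adjusted p = 0.0011) and H2-D1 (1.06, SE 0.22, adjusted p = 0.00098) were the 2 of 10 called at 2-fold, against 9.1% of all genes. By adjusted p 7 of 10 were higher, against 25.9%: B2m, H2-K1, H2-D1, Tapbp, Psmb8, Psmb9 and Psmb10. Tap1 was at 0.14 (SE 0.36, adjusted p = 0.76) and Nlrc5 at 0.63 (SE 0.31, adjusted p = 0.10). Without replicate 3 none was called at 2-fold, 5 still passed by adjusted p (B2m, H2-K1, H2-D1, Psmb8 and Psmb9), against 25.3% of all genes, and Tap1 was at -0.49 (adjusted p = 0.18). Tap1 passed as lower once IRF5 KO LPS DMSO replicate 3 was left out too (-0.51, adjusted p = 7.1e-05), 1 of 10 against 32.5%.

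The same comparison in IRF5 KO called none of the 10 at 2-fold by edgeR's test (24% of all genes in either direction). At an unadjusted p below 0.05 there were 5, and DESeq2 called 0 at 2-fold and 5 by adjusted p (4 higher, 1 lower). By adjusted p B2m (0.72, adjusted p = 0.0043), H2-K1 (0.84, adjusted p = 0.011), H2-D1 (0.77, adjusted p = 0.0073) and Psmb8 (0.40, adjusted p = 0.029) were higher, 4 of 10 against 25.4% of all genes. Tap1 was the 1 gene that was lower, against 28.0% of all genes, at 53.4 to 57.5 CPM beside 99.9 to 116 CPM at rest (-0.95, SE 0.37, adjusted p = 0.041). With WT LPS defactinib replicate 3 out of the shared fit Tapbp and Psmb9 passed as higher too, 6 of 10 against 26.9%, and without both libraries that stand apart the count was also 6, against 31.8%.

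The share of the immunoproteasome was read within each library, as the log2 ratio per exonic length of each inducible subunit to the constitutive subunit it replaces. With 3 libraries against 3 the exact permutation test, two-sided, cannot go below p = 0.1, and all 18 tests of this family had a Benjamini-Hochberg adjusted p of 0.3 or more. The ratios are therefore given as values.

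Psmb9 over Psmb6 was -2.37 ± 0.02 at rest in WT and -1.72 ± 0.17 after LPS (SD, n = 3), with no overlap (difference 0.66, exact p = 0.1). In IRF5 KO it was -2.13 ± 0.23 and -1.90 ± 0.05, which overlapped (0.23, exact p = 0.3). Psmb8 over Psmb5 went from -0.65 ± 0.05 to -0.29 ± 0.13 in WT and from -0.61 ± 0.16 to -0.29 ± 0.10 in IRF5 KO, without overlap in either. Psmb10 over Psmb7 differed by 0.09 in WT, where the groups overlapped (exact p = 0.3), and by -0.32 in IRF5 KO, from -0.05 ± 0.09 to -0.37 ± 0.21 (exact p = 0.1).

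Of the constitutive subunits themselves, Psmb6 (0.52, SE 0.09, adjusted p = 0.00028) and Psmb7 (0.37, SE 0.08, adjusted p = 0.0019) rose with LPS in WT, and Psmb5 did not pass (0.08, adjusted p = 0.62). With defactinib the WT ratios were spread, Psmb9 over Psmb6 being -2.04 and -2.03 in replicates 1 and 2 and -1.38 in replicate 3. In IRF5 KO they were -2.37, -2.36 and -2.37, below all DMSO libraries (difference -0.46, exact p = 0.1).

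**Figure D4:**
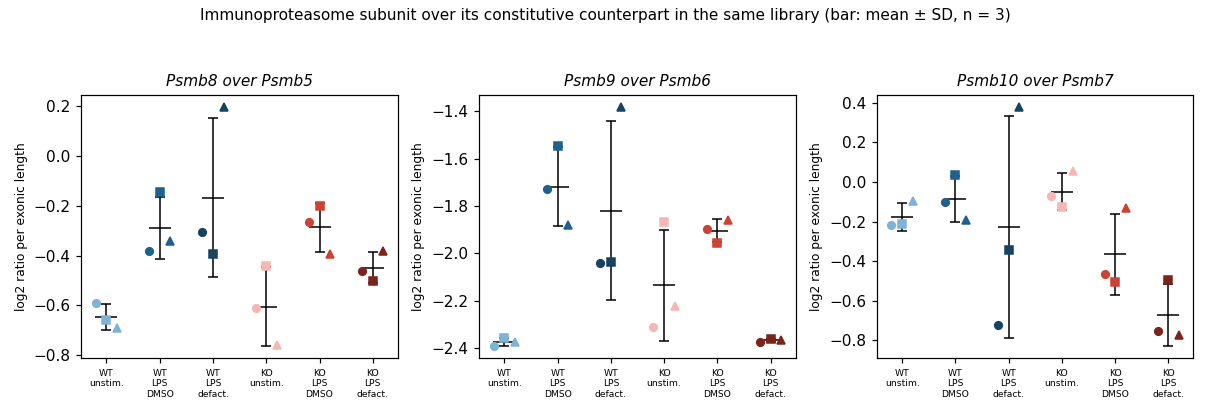
Each panel plots, for every library, the log2 ratio per exonic length of an immunoproteasome subunit to its constitutive counterpart, with mean ± SD (n = 3) as bars. Psmb9 over Psmb6 moved from -2.37 to -1.72 with LPS in WT, and replicate 3 (triangle) is the highest of WT LPS defactinib in all 3 panels.

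Other genes of the pathway were taken from fixed lists. Among the other class I heavy chains 14 of 17 were tested, and with LPS in WT 11 rose, against 20.6% of all genes, and 1 fell, against 21.2% (median log2 fold change 1.38). In IRF5 KO 4 rose, against 18.5%, and 1 fell, against 19% (median 0.63). That count of 4 was 7 without WT LPS defactinib replicate 3 (21.1% of all genes), 8 without both libraries that stand apart (30.8%) and 0 with replicate 3 as the single LPS DMSO library of IRF5 KO (4%). The interaction passed for 3 of the 14, all with the higher response in WT, against 9.77%, for 8 without WT LPS defactinib replicate 3, against 11.2%, and for 1 with that single library, against 5.15%. H2-T22 was at 63.7 to 69.8 CPM at rest in WT and 171 to 232 CPM after LPS (1.67, adjusted p = 0.00057). H2-Q4 (1.32, adjusted p = 0.0046) rose too, and H2-Q6 went from 28.4 to 29.0 CPM to 69.5 to 97.2 CPM (adjusted p = 0.0086). These genes are close copies of each other and their counts are uncertain. With defactinib in WT 3 rose and 4 fell (28.4% and 28.6% of all genes), and in replicate 3 H2-Q6 was at 395 CPM against 83.8 and 92.7 in the others. Without that replicate 2 rose, against 29.8%, and 7 fell, against 28.6%, among them H2-T22 (-0.82, adjusted p = 4.7e-05) and H2-Q4 (-0.31, adjusted p = 0.044).

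Of 9 tested partners of peptide loading and trimming, 3 rose with LPS in WT, against 20.6% of all genes, and 3 in IRF5 KO, against 18.5%. In IRF5 KO there were 6 without LPS DMSO replicate 3, against 28.0%, and 1 without replicates 1 and 2, against 4%. With defactinib in WT 2 of the 9 rose, against 28.4%, and 4 fell, against 28.6% (median 0.09). Without replicate 3 of that group 3 rose, against 29.8%, and 4 fell, against 28.6%. Tapbpl, a tapasin relative that edits peptides, went from 16.8 to 20.9 CPM to 61.6 to 75.3 CPM with LPS in WT (1.89, adjusted p = 2.1e-05). With defactinib it was at 24.5, 21.3 and 49.8 CPM and fell by 1.08 (adjusted p = 0.0017). Lnpep, an aminopeptidase, rose with LPS in WT by 1.64 (adjusted p = 1.5e-05) and fell with defactinib by 1.71 (adjusted p = 8.8e-06). In IRF5 KO neither passed with LPS (0.26 and -0.13), and the interaction was 1.63 (adjusted p = 0.0058) for Tapbpl and 1.77 (adjusted p = 0.0012) for Lnpep. With the LPS DMSO group of IRF5 KO reduced to replicate 3, these differences were 1.24 (adjusted p = 0.075) for Tapbpl and 1.44 (adjusted p = 0.012) for Lnpep. Of 15 other proteasome subunits and assembly factors, 8 rose with LPS in WT and 13 in IRF5 KO, against 20.6% and 18.5% of all genes. The count in IRF5 KO rests on LPS DMSO replicates 1 and 2: without them 1 of the 15 rose, against 4%, and 11 rose in WT, against 24.1%. The interaction passed for none of the 15 in edgeR's test (4 at an unadjusted p below 0.05, and 2 by DESeq2, higher in WT). Without IRF5 KO LPS DMSO replicate 3 it passed for 6, with the higher response in IRF5 KO, against 21.4% of all genes. Of the 15, only Psme2, of the PA28 activator, passed 2-fold in WT (1.10, adjusted p = 4.2e-05).

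Among 19 regulators of class I transcription 9 rose with LPS in WT, against 20.6% of all genes, and 3 fell, against 21.2%, or 5 without IRF5 KO LPS DMSO replicate 3 in the shared fit, against 26.6%. With defactinib in WT 13 fell, against 28.6%, and 2 rose, against 28.4% (median -1.08), and without replicate 3 of that group 14 fell, against 28.6%, and 2 rose, against 29.8% (median -1.61). Stat2, which carries the interferon signal, was at 131 to 136 CPM at rest, 415 to 631 CPM after LPS, and 79.2, 65.9 and 241.2 CPM with defactinib. It rose by 1.95 (adjusted p = 0.0028) and fell by 2.01 (adjusted p = 0.0017), or by 2.82 without replicate 3 of the defactinib group. Irf8, an interferon regulatory factor of myeloid cells, rose by 3.24 (adjusted p = 0.0014) and fell by 2.37 (adjusted p = 0.0071), with replicate 3 at 260 CPM against 39.8 and 41.1 CPM, and without that replicate it fell by 3.84. Nfkb1 rose by 1.85 with LPS (adjusted p = 9.2e-07) and fell by 0.94 (adjusted p = 0.00034) with defactinib.

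Irf1, named after its values were seen, is a known activator of Tap1 and Psmb9. It was at 543 to 622 CPM after LPS in WT, at 22.8 CPM or less with defactinib in all 3 libraries, and at 51.4, 50.5 and 213 CPM after LPS in IRF5 KO. With LPS and defactinib in IRF5 KO it was at 96.1, 98.1 and 95.6 CPM, above WT with defactinib. Tap1 was lower in that IRF5 KO group (53.4 to 57.5 CPM) than in WT with defactinib (92.5 to 257 CPM). The part of Irf1 in the Tap1 values was not tested. Ifnb1, which encodes interferon-beta, was at 81.9, 54.5 and 69.1 CPM after LPS in WT and 32.8, 32.2 and 18.6 CPM in IRF5 KO (log2 fold change 1.30, adjusted p = 0.017), a call that was lost without IRF5 KO LPS DMSO replicate 3 (1.08, adjusted p = 0.062) and without replicates 1 and 2 (1.86, adjusted p = 0.054). With defactinib in WT it was at 37.7, 21.8 and 6.42 CPM, lowest in replicate 3, and fell by 1.64 (adjusted p = 0.0042). All 5 tested genes of interferons and their receptors fell with defactinib in WT (median -1.15, against 28.6% of all genes), and 4 did without replicate 3, against 28.6%. Of the receptor genes, Ifnar1 fell by 1.56 (adjusted p = 0.0020) and Ifngr2 by 1.15 (adjusted p = 0.00050).

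**Figure D5:**
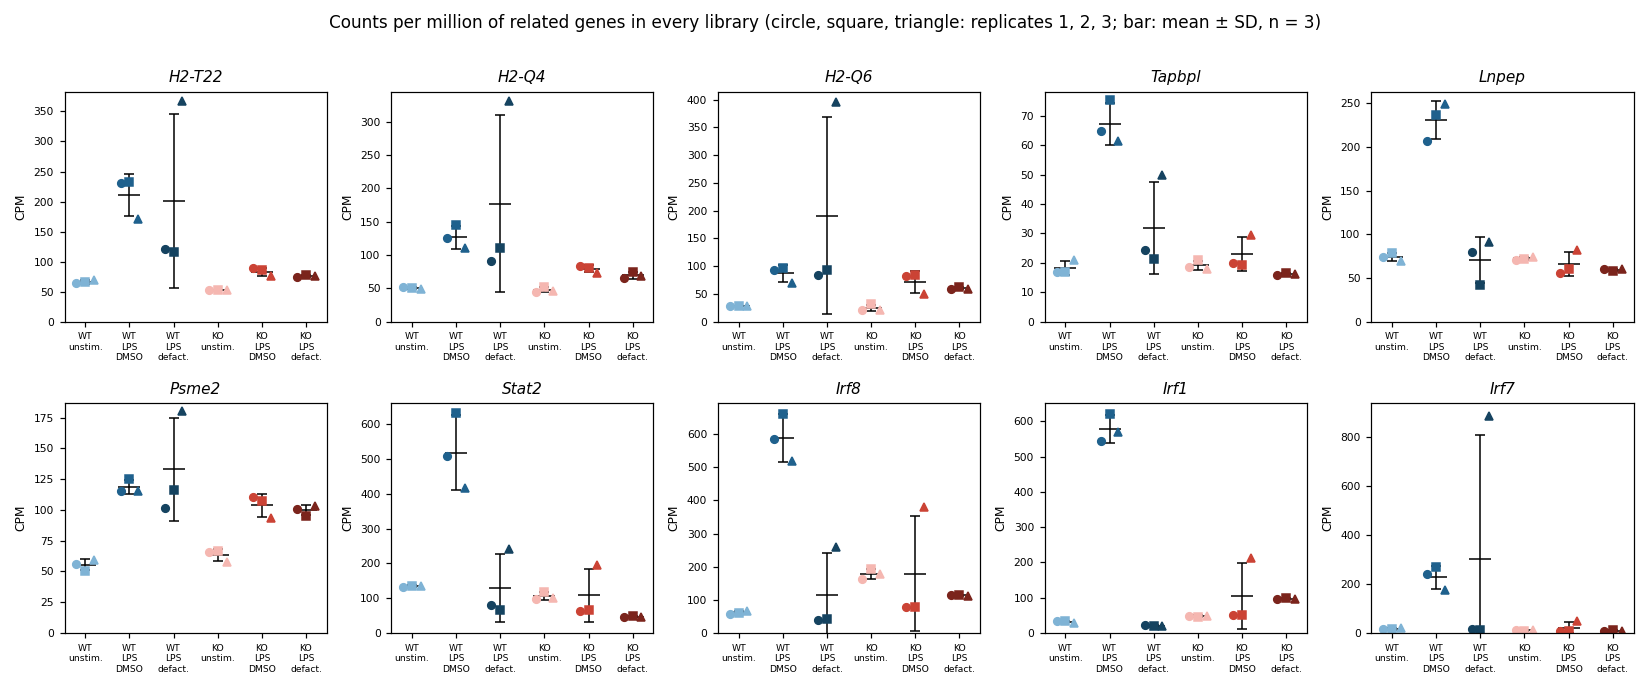
CPM of 10 related genes in every library, on linear axes from 0 at which lower error bars end, with symbols as replicates 1, 2 and 3 and bars as mean ± SD (n = 3). In WT LPS defactinib the triangle is the highest for the heavy chains, Stat2, Irf8 and Irf7 but not for Irf1, which is at 22.8 CPM or less in all 3 libraries. In IRF5 KO LPS DMSO the triangle is the highest for Stat2, Irf8 and Irf1 and the lowest for the heavy chains.

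The genes whose log2 CPM ran most like each member over the 18 libraries are given as a description, since all points share libraries and scaling. For Tap1 they were Stat2 (Pearson's r = 0.992), Xaf1 (0.988) and Trim30d (0.986). For Tapbp they were AW112010 (0.979), Oas1a (0.976) and Lgals9 (0.973). H2-K1 was nearest to H2-T23 (0.978), H2-Q6 (0.963) and Bst2 (0.963), and H2-D1 to Tspo (0.976), H2-T23 (0.974) and Necap2 (0.960). B2m ran with Npc2 (0.977), Uba1 (0.972) and Cpne2 (0.952), and Nlrc5 with Sema4a (0.957), Gbp4 (0.956) and 9330159M07Rik (0.954).

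For Psmb8 the nearest were Mrps6 (0.960), Psme1 (0.958) and Jak3 (0.955), for Psmb9 Mreg (0.955), Cd86 (0.952) and Zc3h7b (0.943), for Psmb10 Zbp1 (0.920), Irf7 (0.910) and Apol9a (0.910), and for Tap2 A230050P20Rik (0.954), Sp110 (0.945) and Nlgn2 (0.945). Within the 10, H2-K1 and H2-D1 ran closest (0.994), Tap1 and Nlrc5 at 0.900, and Tap1 and Psmb8 farthest apart (0.072).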

How the data were processed

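RNA-seq of 18 libraries was used, in 6 groups of 3. The authors deposited counts per Ensembl gene (unique read pairs, not normalized) from STAR alignment to mm10 (at most 2 mismatches) and featureCounts 1.6.3, reverse stranded, over exons. Testing used edgeR 4.0.16 under R 4.3.3 (filterByExpr, TMM, glmQLFit with robust estimation on all libraries together, glmQLFTest). Benjamini-Hochberg adjustment was over 15663 tested genes per comparison. A call needed a false discovery rate below 0.05 and, where stated, a change of 2-fold. SE is the log2 fold change divided by the square root of F. The 10 genes, the gene lists and the tests were chosen with earlier results of these data known. The rule named all 10 genes, up to 3 called genes per list by mean level, the constitutive subunits, the 3 genes most like each member, and Irf5, Ptk2b and Ptk2. On simulated data for LPS in WT, 98.5% of 4-fold, 73.1% of 2-fold and 23.9% of 1.5-fold changes were recovered. Alternatives were DESeq2 1.42.0, its size factors, library size alone, no filter, glmTreat, the replicate block, only the groups compared and libraries left out. Ptk2b (101 to 186 CPM) and Ptk2 (15.3 to 43.5 CPM), the targets of defactinib, were counted in every library.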

Additional observations from a re-analysis of the deposited data

Results flagged for a closer look

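The effect of LPS differed between the genotypes for 2 of the 10 genes by the interaction test of edgeR, both higher in WT, against 9.77% of all genes. The LPS response of Tap1 was larger in WT than in IRF5 KO by 1.81 on the log2 scale (adjusted p = 0.027), with all 3 WT LPS libraries above rest and 2 of 3 IRF5 KO LPS libraries below it. It passed under 15 of 26 alternatives, and the difference was 1.04 without replicates 1 and 2 of IRF5 KO LPS DMSO. The response of Tapbp was larger in WT by 0.95 (adjusted p = 0.041), with all LPS libraries above rest in both genotypes. It passed under 9 of 26 alternatives, with an adjusted p of up to 0.21.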

How the results depend on the processing

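The numbers of the 10 genes called at 2-fold were recomputed under each alternative. With no fold change threshold the calls were 8 for LPS in WT, 4 for LPS in IRF5 KO, 5 for defactinib in WT, 5 for genotype after LPS, 8 for genotype under LPS and defactinib, 7 and 5 for LPS with defactinib against rest in WT and IRF5 KO, and 2 for the interaction of genotype and LPS. With the threshold inside the test (glmTreat) there were 0 for LPS in WT, for defactinib in WT, for LPS with defactinib against rest in WT and for the interaction of genotype and LPS, and 1 for genotype under LPS and defactinib. Library size alone gave 2 for LPS in WT (Tap1 and Nlrc5) and 1 each for LPS with defactinib against rest in WT and IRF5 KO. It moved the median of all genes from -0.0045 to -0.38 for LPS in WT, from 0.0063 to -0.23 for LPS in IRF5 KO, from 0.086 to 0.29 for defactinib in WT and from 0.12 to 0.45 for the interaction of genotype and defactinib. Among all genes called, the lower share went from 45.5% to 68.6% for LPS in WT, 47.0% to 65.2% for LPS in IRF5 KO, 64.1% to 50.8% for defactinib in WT, 82.6% to 94.3% for defactinib in IRF5 KO, 45.6% to 61.9% for genotype after LPS, 67.4% to 82.1% for LPS with defactinib against rest in IRF5 KO, and 35.5% to 55.3% and 53.8% to 31.0% for the interactions with LPS and defactinib. H2-K1 and H2-D1 no longer passed with LPS in either genotype, nor Tapbp and Nlrc5 with defactinib in WT. For the interaction of genotype and LPS, no low count filter gave 0, only the groups compared 2 and DESeq2 2. Leaving out IRF5 KO LPS DMSO replicates 1 and 2 gave 0 for that interaction and 1 for defactinib in IRF5 KO. Leaving out 1 library at a time gave 1 to 3 calls for defactinib in WT, 1 to 4 for genotype under LPS and defactinib, 0 to 4 for LPS with defactinib against rest in WT, and 0 to 2 for each interaction. Leaving out both libraries that stand apart, chosen after seeing the data, gave 3 for defactinib in WT, 1 for genotype under LPS and defactinib, 0 for LPS with defactinib against rest in WT and 2 for each interaction.

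The replicate block left all of these counts as they were (4 for LPS in WT, 3 for genotype after LPS, 1 for defactinib in WT). Replicate numbers were not taken as pairs: over 45 pairs of libraries with the same number the median correlation of residuals was 0.0046, above 0.1 in 4.

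Some fold changes and ratios changed sign. Tap1 with LPS in IRF5 KO was 0.0014 with only the groups compared, 0.71 without replicates 1 and 2 of LPS DMSO, and -0.65 to 0.20 with 1 library left out. Its interaction of genotype and defactinib was 0.064 without those replicates. H2-K1 with defactinib in WT was -0.014 to 0.785 with 1 library left out and -0.038 without both that stand apart. Tap1 with LPS and defactinib against rest in WT was -0.046 by library size alone, -0.49 to 0.42 with 1 library left out, and -0.51 without both. With 1 library left out, Psmb8 over Psmb5 ran from -0.061 to 0.24 for defactinib in WT, -0.12 to 0.038 for genotype at rest and -0.074 to 0.043 for genotype after LPS. Psmb9 over Psmb6 for defactinib in WT ran from -0.32 to 0.011 and Psmb10 over Psmb7 from -0.45 to 0.10. The cause of these changes was not tested. Ratios of raw counts without length gave the same differences by construction. The lowest value of the 10 genes in any library was 21.9 CPM (Nlrc5).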
